A study of Mus musculus with 5 samples.

Results

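Oasl1, Tyk2 and Irf2 are the genes of the interferon pathway singled out here in 5 peak lists of BCLAF1 CUT&RUN from mouse blood stem and progenitor cells. They were picked out of 21887 protein-coding genes because an earlier reading of the same lists had shown a peak at each of them. They were thus chosen by the presence of peaks, the very measure given here, and these peaks are described without a test. The rule takes every peak inside or within 50 kb of the annotated span of each gene. It found 6 of the 6540 peaks on chromosomes 1 to 19, X and Y. These 6 peaks make up 3 regions: 1 upstream of Oasl1, seen in 4 lists, 1 past the 3' end of Tyk2, seen in the knockout list, and 1 inside Irf2, seen in 1 wild-type list.

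CUT&RUN releases and sequences the DNA around an antibody with a tethered nuclease, and the same anti-BCLAF1 antibody was used in all 5 libraries, each from 50000 sorted cells. Haematopoietic stem cells (HSCs) of E17.5 fetal liver, pooled from 24 to 26 embryos, gave 2 wild-type libraries, called WT1 and WT2 here, and 1 library of genotype KO. Wild-type LSK cells (lineage-negative, Sca1-positive, Kit-positive progenitors) gave 1 native library and another one, called fixed here, treated with 0.1% formaldehyde for 2 min. The tissue label of the LSK libraries reads fetal liver while their protocol speaks of adult bone marrow from 2 to 3 mice, so their age and tissue are uncertain. KO is taken here as a knockout of Bclaf1, the gene of the antibody's own target, so its peaks come from cells meant to lack BCLAF1. The sample labels give only KO, with neither the gene, the allele nor a Cre driver, and leave it unsaid if WT1 and WT2 stem from separate pools of embryos. As the KO, native and fixed conditions have 1 library each, no difference between conditions could be tested. Peak lists hold no expression values, so neither the KO label nor the cell types could be checked against marker genes. An IgG library was not used here.

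Interferons are secreted proteins that bind receptors on the cell surface. JAK-family kinases attached to those receptors, TYK2 and JAK1 among them, phosphorylate transcription factors that switch on interferon-stimulated genes through a DNA element called the interferon-stimulated response element (ISRE). IRF2 binds the same element and counteracts activation by IRF1, and in blood stem cells it is known for restraining the type I interferon response. OASL1 is an interferon-stimulated protein of the oligoadenylate synthetase-like kind that is known to restrain interferon production by blocking translation of IRF7. BCLAF1 is a nuclear protein that has been linked to interferon-stimulated transcription in virus-infected cells.

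Each peak is described by its fold enrichment and its reads. Fold enrichment is the value the authors' caller wrote for the peak, reads over local background with a pseudocount of 1 on each, and it was not scaled between libraries. The number of reads over the summit and the local background were recovered from the deposited fold enrichment and p-value. The most common background of a list, a measure of its depth, was 0.339 reads per position in WT1, 0.117 in WT2, 1.15 in KO, 0.327 in native and 0.022 in the fixed library. The weakest peak of each list held 6, 4, 9, 6 and 3 reads in the same order. Intervals on reads are exact 95% Poisson intervals that cover counting error only, as reads were not marked with molecular identifiers.

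Oasl1 lies on chromosome 5 from 114923143 to 114937911 (GRCm38.p6, the coordinates of mm10), on the plus strand, with its start site at 114923240. All 4 peaks near it lay in the gap between Oasl1 and Gm13822, a long noncoding RNA gene on the opposite strand that ends at 114922261, its own start site. They covered 139 bases together, from 114922452 to 114922590, and shared 75 bases, from 114922461 to 114922535. The region was nearer to the start of Gm13822, at 191 bp, than to the Oasl1 start site, at 650 bp. Of the 139 bases, 60 fell in the Gm13822 promoter window, which is 250 bases before to 50 after its start site, and none fell in the Oasl1 window. The RefSeq windows of these oppositely oriented genes are printed here because they show where the recovered DNA lies between them. The Gm13822 window spans chr5:114922212-114922511 on the minus strand, with the 60 bases covered by a peak in capitals, the first 51 of which lay in all 4 peaks. The Oasl1 window spans chr5:114922990-114923289 on the plus strand and is in lower case throughout, as no peak reached it.
Gm13822: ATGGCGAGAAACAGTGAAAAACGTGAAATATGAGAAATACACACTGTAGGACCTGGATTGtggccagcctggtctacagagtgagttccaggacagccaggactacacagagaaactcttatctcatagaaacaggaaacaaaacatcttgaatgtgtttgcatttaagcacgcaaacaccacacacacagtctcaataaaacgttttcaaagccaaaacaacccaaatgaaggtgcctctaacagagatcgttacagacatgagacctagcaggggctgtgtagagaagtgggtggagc
Oasl1: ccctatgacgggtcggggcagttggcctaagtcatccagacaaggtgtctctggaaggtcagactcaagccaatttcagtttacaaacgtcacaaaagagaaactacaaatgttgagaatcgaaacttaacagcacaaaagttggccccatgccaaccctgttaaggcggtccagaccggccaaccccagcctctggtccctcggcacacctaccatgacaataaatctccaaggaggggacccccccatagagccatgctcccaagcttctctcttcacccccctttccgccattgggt

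The letters of the covered stretch were searched on both strands for the ISRE, spelled GAAA, any 2 bases and GAAA. It did not occur in the 60 bases, in the rest of the Gm13822 window or in the Oasl1 window. The ISRE letters occur in 3.44% of all 32851 promoter windows, and in the first 60 bases of 0.740% of them. GAAA, which makes up either end of the ISRE and was searched after the letters had been seen, occurred 4 times in the 60 bases. At least 4 matches to it, on either strand, were found in the first 60 bases of 0.755% of all windows. The covered stretch also held no E-box (CANNTG), no AP-1 site (TGANTCA), no CCAAT box, no GC box (GGGCGG), no CTCF-like core (CCCTC), no ETS core (GGAA) and no GATA letters. In the first 60 bases of all windows these occurred in 23.2%, 1.51%, 8.25%, 6.02%, 18.6%, 48.4% and 20.9%, in that order. Most such stretches thus lack each of them. No other promoter window shared a word of 16 letters with the 51 bases common to all 4 peaks. The closest ungapped stretch in another window matched 32 of the 51 letters, against a median of 23 over 32850 windows. As promoter windows alone were searched, this cannot show if copies of the stretch lie elsewhere in the genome. The letters of the covered stretch resemble the mouse major satellite, a tandem repeat present in very many copies in pericentromeric heterochromatin. This likeness was seen by eye and was not tested, since repeat annotation and a satellite sequence were not used here. Reads from copies of a repeat cannot be assigned to 1 place with certainty, so the read numbers at this region may not all stem from the DNA next to Oasl1, in any of the 4 libraries. The other 79 bases of the region are not in the promoter table, and neither are the peaks at Tyk2 and Irf2. The letters of those peaks were not at hand, so a likeness to a repeat could not be looked for there. A match or its absence describes the searched letters only.

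**Figure D1:**
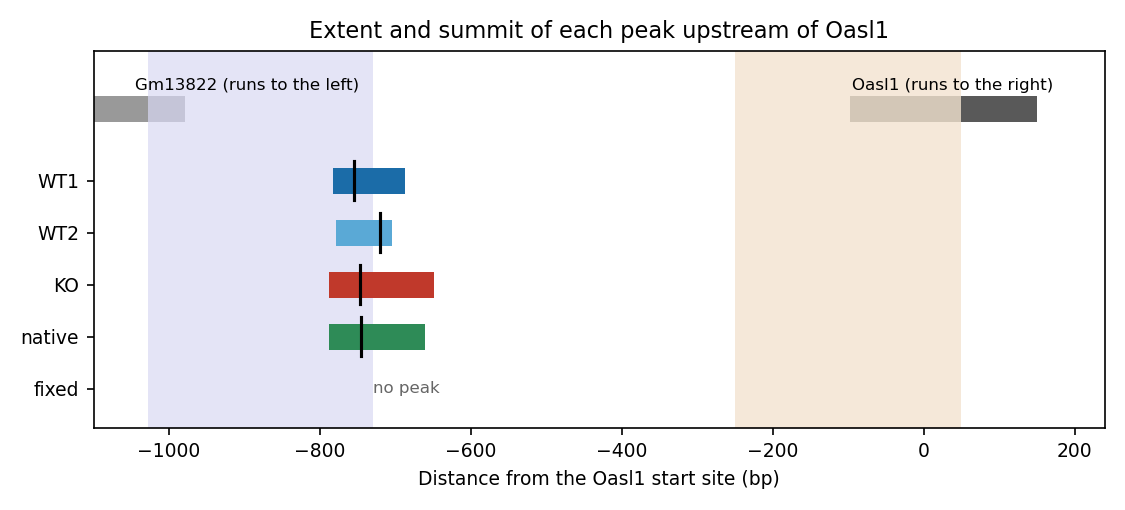
Extent of each peak upstream of Oasl1 (coloured bars, black line at the summit) for the 5 libraries, by distance from the Oasl1 start site in bp, with the promoter windows of Gm13822 (left shading) and Oasl1 (right shading) and the gene spans in grey. The peaks of 4 libraries overlap one another and reach into the Gm13822 window. That window holds the summits of WT1, KO and the native library, but not that of WT2. All 4 peaks end 400 bp or more before the Oasl1 window.

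The Oasl1 peak was strongest by fold enrichment in the knockout. KO had a fold enrichment of 31.1 from 77 reads (60.8 to 96.2), on a local background of 1.51. WT1 had 10.3 from 13 reads (6.92 to 22.2), on 0.356, and WT2 had 6.27 from 6 reads (2.20 to 13.1), on 0.117. The native library had 20.2 from 28 reads (18.6 to 40.5), on 0.436. The fixed library had no peak, and the nearest peak of that list lay 4383917 bp away. The order of the fold enrichments, KO, native, WT1 and WT2, is not the order of the ratios without the pseudocount.

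Without it, reads over local background were 50.9 in KO (40.2 to 63.6), 36.6 in WT1 (19.5 to 62.5), 51.3 in WT2 (18.8 to 112) and 64.3 in the native library (42.7 to 92.9). These 4 counting intervals overlap one another. Overlap of separate intervals does not show that the libraries are alike, and differences between them at Oasl1 were not tested. The summits lay within 34 bp of one another, at 114922485 in WT1, 114922519 in WT2, 114922493 in KO and 114922494 in the native library. If the enrichment of KO over its genome background held in the fixed library, 77 reads there would correspond to 1.48 reads in fixed cells (1.17 to 1.85), below the 3 reads of its weakest peak.

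**Figure D2:**
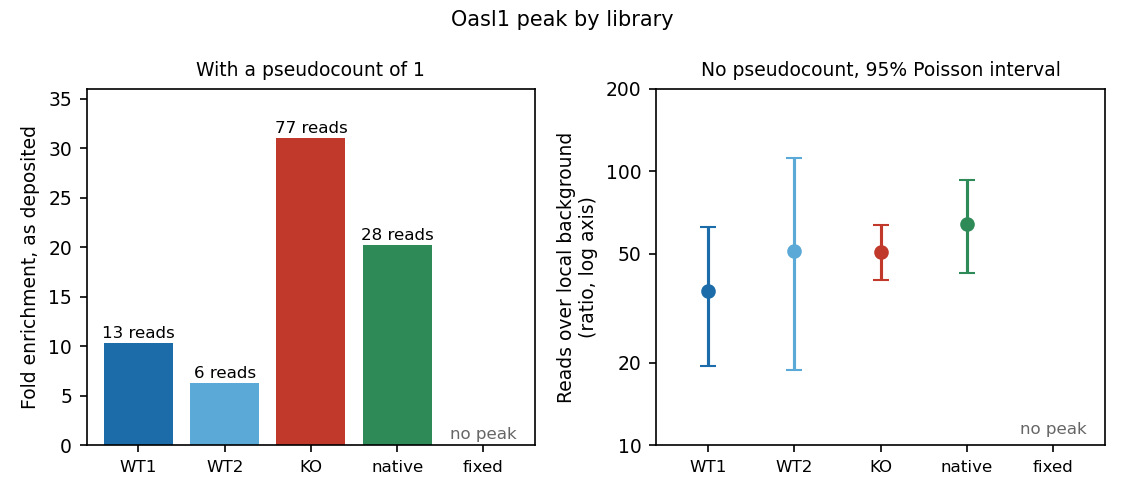
Oasl1 peak in the 5 libraries: the deposited fold enrichment (left, bars from 0, with the read number above) and reads over local background without a pseudocount (right, log axis, points with exact 95% Poisson intervals). The bars run from 6.27 in WT2 to 31.1 in KO, while the points lie between 36.6 and 64.3 with overlapping intervals.

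A peak inside or within 1 kb of a protein-coding gene, as at Oasl1, was called for 0.48% of all such genes in WT1, 0.685% in WT2, 5.11% in KO and 0.964% in the native library. The same 4 lists, without the fixed one, marked 48 genes in this way (0.219%). Oasl1 is thus in a small set, but it was chosen for this pattern. Among genes with a span like that of Oasl1 these shares were lower, at 0.181%, 0.259%, 1.97% and 0.389% in the same order of libraries. Overlap with a promoter window was rarer than closeness to a gene: 3 of 447 peaks in WT1 (0.671%), 2 of 528 in WT2 (0.379%), 5 of 4517 in KO (0.111%) and 5 of 770 in the native library (0.649%) touched one. In the fixed library 0 of 278 did. The Oasl1 region, through the window of Gm13822, accounts for 1 peak of WT1, KO and the native library and for 1 of the 2 in WT2.

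Regions called in both WT lists, KO and the native library but not in fixed cells numbered 188 of 5029. Among them the Oasl1 region was of middling height. Its fold enrichment was reached or passed by 108 of the 188 regions in WT1, 127 in WT2, 79 in KO and 73 in the native library, the Oasl1 region included. The median fold enrichments of the 188 regions were 11.2, 8.43, 26.6 and 17.2 in that order. Reads over genome background in KO were 1.75 times those in WT1 at Oasl1, against a median of 1.11 (quartiles 0.788 to 2.03) over the 145 regions whose reads could be resolved in every list of the ratio. Against WT2 the Oasl1 ratio was 1.31 and the median 0.801 (quartiles 0.612 to 1.17). These ratios carry no counting interval and depend on the background used. Over local background the Oasl1 values were 50.9 in KO, 36.6 in WT1 and 51.3 in WT2. The 43 regions without a value are among the strongest in KO.

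Oasl2, the paralog next to Oasl1, lies 10207 bp from the region, farther than Oasl1, and no other peak of any list lay within 50 kb of Oasl1. The next one, in KO, lay 893.9 kb from the gene, near Cit, with a fold enrichment of 6.52 from 13 reads.

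**Figure D3:**
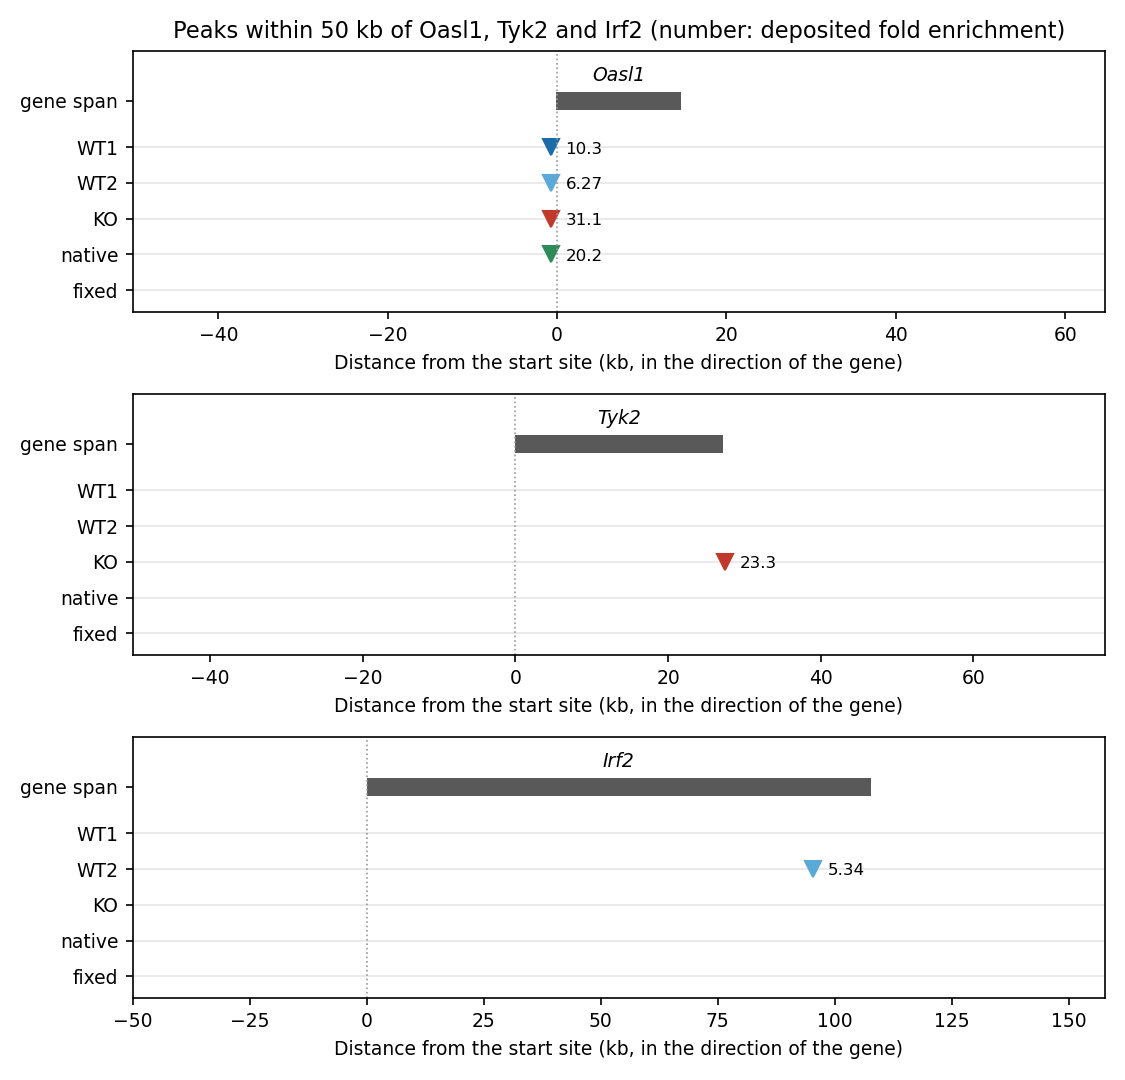
Peaks of the 5 libraries (triangles at the summit, with the deposited fold enrichment) by distance in kb from the start site of Oasl1, Tyk2 and Irf2, in the direction of each gene, with the annotated span as a grey bar. The peaks sit just before Oasl1 in 4 libraries, just past the 3' end of Tyk2 in KO and far inside Irf2 in WT2.

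Tyk2, the receptor-bound kinase, lies on chromosome 9 from 21104068 to 21131393 on the minus strand. Its peak was called in KO alone, from 21103712 to 21103821, with a fold enrichment of 23.3 from 49 reads (36.3 to 64.8) on a local background of 1.15. WT1, WT2, native and the fixed library had no peak there, and their nearest peaks lay at least 1528200 bp away. Since the gene runs on the minus strand, the peak is 247 bp past its 3' end and 27454 bp from its start site. It is therefore not at the Tyk2 promoter. The next genes on that side are Gm38431, a long noncoding RNA gene, and Raver1, a gene for an RNA-binding protein, at 11704 and 11713 bp. Exons and introns are not given in the gene table used here. As the letters of the Tyk2 peak were not at hand, it is unknown if its reads could stem from a repeat.

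In KO, 5.11% of protein-coding genes had a peak inside or within 1 kb, 4.02% had one in KO alone, and among genes with a span like that of Tyk2 the first share was 3.38%. Peaks found in no other list made up 83.8% of the KO list (3783 of 4517), so this pattern is the common one. The height is less common: 42 of those 3783 peaks reached the fold enrichment of the Tyk2 peak, which had 49 reads against a median of 15. Of 80 KO peaks outside protein-coding genes but within 1 kb of one, 34 lay on the 5' side, 21 on the 3' side as at Tyk2, and for 25 the strand was not in the promoter table.

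The reads of the Tyk2 peak were set beside the depth of the other lists, scaled by their genome backgrounds. At the same enrichment over genome background, the 49 reads of KO would correspond to 14.5 reads in WT1 (10.7 to 19.1) and 14.0 in the native library (10.3 to 18.5), above the 6 reads of the weakest peak in each. In WT2 they would correspond to 5.0 reads (3.70 to 6.61), near its minimum of 4, and in the fixed library to 0.940 (0.695 to 1.24), below its minimum of 3. The peak was chosen for its call in KO, which favours a high value there. Why the other lists have no call at Tyk2 was not tested. The next peak outside the 50 kb rule, 97.1 kb from Tyk2 on chromosome 9 from 21228515 to 21228608, was also a KO peak, with a fold enrichment of 11.6 from 24 reads. It lies 1122 bp from Keap1, the gene of an oxidative stress sensor.

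Irf2, the repressor of ISRE-driven transcription, lies on chromosome 8 from 46739745 to 46847458 on the plus strand. Its only peak, from 46835041 to 46835116, was called in WT2 with a fold enrichment of 5.34 from 5 reads (1.62 to 11.7) on a local background of 0.123. WT1, KO, native and the fixed library had no peak there. The nearest KO peak lay 896278 bp away. Within the gene the summit was 88.5% of the way along the span, 95.3 kb from the start site and 12.4 kb from the 3' end. The nearest other gene was Gm39170, a long noncoding RNA gene, at 4644 bp.

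The promoter window of Irf2 held an ISRE match, GAAAATGAAA, 241 bases before the start site, letters that 3.44% of all windows hold. It also held a match to the gamma-activated site (TTCNNNGAA), TTCCGAGAA, 224 bases before the start site, which 8.30% of all windows hold. No peak of any list reached that window, and the peak inside the gene lies 95247 bp from it. The Tyk2 window held no match to either.

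The Irf2 call is close to the weakest that WT2 allows, 1 read above the minimum of 4. In that list 80 peaks held 5 reads, and 32 of them overlapped a KO peak (40.0%, exact 95% binomial interval 29.2 to 51.6), against 66.3% of all WT2 peaks. Another 7 peaks of the list had the same fold enrichment and p-value as the Irf2 peak. WT2 held 174 peaks that overlapped no peak of another list (33% of the list), and 158 of them had at most 5 reads. Of the 354 peaks shared with another list, 55 had at most 5. At the enrichment of the Irf2 peak, its 5 reads would correspond to 49.0 reads in KO (15.9 to 114) and 14.5 in WT1 (4.70 to 33.8). The weakest peaks of those lists held 9 and 6 reads, and this peak too was chosen for its call.

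Irf2 is a long gene, with a span that 10.1% of protein-coding genes reach. Among genes with a span like it, 1.51% had a WT2 peak inside or within 1 kb, against 0.685% of all protein-coding genes. WT2 alone of the 5 lists marked 47 genes in this way (0.215%).

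**Figure D4:**
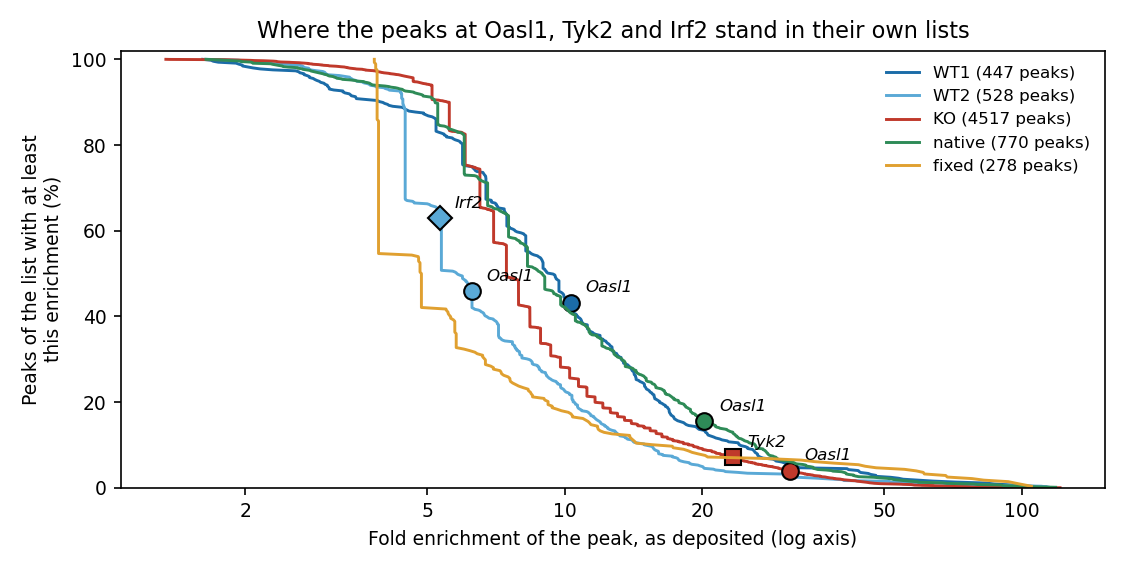
Share of the peaks of each list (vertical axis, percent) with at least a given deposited fold enrichment (log axis), with the peaks at Oasl1 (circles), Tyk2 (square) and Irf2 (diamond) marked in the colour of their library. The Oasl1 peak stands in the top 3.98% of the KO list and 15.6% of native, but near the middle of WT1 (43.2%) and WT2 (45.8%), where Irf2 is at 62.9%.

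Within their own lists the 3 genes rank differently. The Oasl1 peak was in the top 3.98% of KO peaks by fold enrichment and the Tyk2 peak in the top 7.15%. In WT1 the Oasl1 peak was in the top 43.2% and in WT2 in the top 45.8%, near the middle of the list. The Irf2 peak was in the top 62.9% of WT2. Of the 3 regions, 1 was called outside the knockout list and not in it, the Irf2 region with 5 reads. Over all peaks, 90.4% in WT1, 66.3% in WT2, 84.4% in the native and 34.5% in the fixed library overlapped a KO peak. With 3 regions chosen for their peaks, the count describes these regions only.

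The rest of the pathway was read from a list of 119 genes by role, of which 115 distinct protein-coding genes matched the gene table. Rigi, listed as a sensor, and Mx1 and Mx2, listed as effectors, did not match by name and were not examined. Within 1 kb, Oasl1 was the 1 gene with a peak in WT1 (0.870% of the list, against 0.48% of all protein-coding genes) and in the native library (0.870% against 0.964%). WT2 marked Oasl1 and Irf2 (1.74% against 0.685%), KO marked Oasl1, Tyk2 and Ifnlr1 (2.61% against 5.11%), and the fixed library marked none of the 115 (against 0.457% of all). Ifnlr1 encodes the receptor chain specific to type III interferons. Its peak lay inside the gene on chromosome 4 from 135691709 to 135691798, with a fold enrichment of 6.06 from 12 reads, and was called in KO alone.

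By role, no peak lay within 1 kb of the 20 type I and III ligand genes, the gene of interferon gamma, 9 negative regulators, 15 sensors and adaptors or 34 effectors, in any list. Of 6 receptor genes Ifnlr1 had one, of 6 JAK and STAT genes Tyk2, of 12 interferon regulatory factor genes Irf2, and of 12 genes of the oligoadenylate synthetase family with RNase L, Oasl1. Over the 5 lists together these are 4 of 115 genes (3.48%), against 5.72% of all protein-coding genes. Oasl1, Tyk2 and Irf2 among them were chosen for their peaks, and each role with a peak rests on 1 gene. The roles were therefore not compared with one another. Within 50 kb the list had 2 of 115 genes in WT1 (against 365 of all 21887 protein-coding genes), 3 in WT2 (against 470), 14 in KO (against 3837), 4 in the native library (against 743) and 0 in the fixed one (against 338). The list was short-spanned, with a median gene span of 12085 bp against 17169 bp over all protein-coding genes. As shares, the counts within 50 kb were 1.74%, 2.61%, 12.2% and 3.48% of the list in WT1, WT2, KO and native, near the shares of all genes in the HSC wild-type and native libraries and below it in KO. Within 1 kb each share rests on 1 to 3 genes. Of the genes within 50 kb, 2 belong to the oligoadenylate synthetase family in each of WT1, WT2, KO and native. The same region upstream of Oasl1 lies within 50 kb of both Oasl1 and Oasl2. Of 6 receptor genes KO marked 3 and native 2 within 50 kb, and of 20 type I and III ligand genes no list marked any. Neighbouring genes can share a peak or lack one together, so these counts are not of separate places. The shares were not compared by a test.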

How the data were processed

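The deposited files are 1 narrowPeak list per library on build mm10, per the submitters' processing notes. For the aligner, the peak caller with its control and the treatment of duplicates, the method is not given in the sources used here. Each list, as deposited, gives per peak a fold enrichment, −log10 p-values and −log10 q-values, and a score that is the −log10 q times 10, rounded down. Reads per summit and local background were recovered as the whole number that gives both the fold enrichment (pseudocount 1) and the Poisson p-value (relative tolerance 0.0001); up to a −log10 p of 300 such a number was found for 100% of peaks in each list. More than 1 number fitted for 17 peaks of WT1, 1 of WT2, 25 of the native and 1 of the fixed library, where the closest was taken; for each of the 6 peaks described, 1 number fitted. On peaks simulated with this same formula, recovery returned 117 of 117 read numbers. The simulated backgrounds were at most 1, below the local backgrounds of the KO peaks described (1.15 and 1.51). The simulation checks the calculation only, and cannot show that the deposited values follow the formula. Groups came from the sample titles. Gene spans and promoter windows are RefSeq GRCm38.p6. Start sites and strands come from the promoter table. Peaks on chromosomes 1 to 19, X and Y were used, and peaks overlapped when they shared 1 bp. The genes, lists and motifs were chosen with earlier results of these data known. Named are the 3 genes, protein-coding genes holding or nearest to their peaks, list genes with a peak within 1 kb, and list genes without a match in the gene table. A few items are not reported here. Alternatives were other distances (1, 10 and 100 kb), a −log10 q of at least 5, lists cut to 278 peaks, other overlap rules, each HSC WT library left out, no pseudocount, and other gene sets. Python 3.11.15, scipy 1.17.1 and pandas 2.3.3 were used.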

Additional observations from a re-analysis of the deposited data

How the results depend on the processing

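No paired analysis was possible because 1 group alone has 2 numbered libraries and no result comes from a test across samples. With lists of 278 peaks, the strongest by p-value, WT2 had 0 peaks at the 3 genes in place of 2 and KO 1 in place of 2. The cut fell close to the Oasl1 peak, which ranked 283 by p-value in WT2, 274 in WT1 and 273 in KO. In WT2 it tied with 20 other peaks, and ties were ranked in the order of the list, so its loss may rest on that order. At a −log10 q of at least 5, WT2 had 1, the Irf2 peak being lost. The distances of 1, 10 and 100 kb moved no count of peaks by over 1.5 times. Regions called outside the knockout list and not in it numbered 0 to 1 when each HSC WT library was left out: 0 without WT2 and 1 without WT1. Other overlap rules left this count at 1.

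Enrichments rose without the pseudocount. Over local and over genome background they were 36.6 and 38.3 for Oasl1 in WT1, 51.3 and 51.3 in WT2, 50.9 and 67.1 in KO, and 64.3 and 85.6 in the native library. For Tyk2 in KO they were 42.7 and 42.7, and for Irf2 in WT2 they were 40.5 and 42.7.

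The background share of genes with a peak within 50 kb moved as follows at a −log10 q of at least 5: 1.43% in WT1, 1.07% in WT2, 15.7% in KO, 2.82% in native and 0.425% in the fixed library. Within 1 kb it was 0.324% in WT2, 4.53% in KO, 0.768% in native and 0.155% in the fixed library. Over all genes of the table, noncoding included, the share within 50 kb was 15.8% in KO, 3.02% in native and 1.30% in the fixed library. Within 1 kb it was 0.322% in WT1, 0.426% in WT2, 3.18% in KO, 0.613% in native and 0.268% in the fixed library. Among genes with spans like Oasl1 the share within 50 kb was 1.74% in WT2, 15.1% in KO and 2.88% in native. Within 1 kb it was 0.181% in WT1, 0.259% in WT2, 1.97% in KO and 0.389% in the native library. With spans like Irf2 it was 3.28% within 50 kb and 1.51% within 1 kb in WT2, and with spans like Tyk2 15.7% and 3.38% in KO.

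The interferon list had 2 genes in WT1, 14 in KO and 4 in the native library at 50 kb, and 1 in WT2 at a −log10 q of at least 5. Beyond what the construction of each setting shows, the cause was not tested.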
